A study of Homo sapiens with 12 samples.

Results

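The genes described here are 42 p53 targets and apoptosis regulators, out of 60623 genes in the count table. They were chosen by name as p53 pathway, BCL2 family, IAP, death receptor and caspase genes. The rule itself uses no measured value, but the list was drawn up with earlier results of these data known. RNA was sequenced after poly-A selection from 2 established human colorectal cancer cell lines, SW480 and COLO320DM. Each line was transfected with pCMV6-HKDC1, which drives the hexokinase-domain gene HKDC1 from a CMV promoter, or with the empty plasmid pCMV6-Entry, so that all groups carry a pCMV6 backbone. The 4 groups, with 3 replicates each, are SW480 with pCMV6-HKDC1, SW480 with pCMV6-Entry, COLO320DM with pCMV6-HKDC1 and COLO320DM with pCMV6-Entry. Cells were exposed to 10 μg of plasmid and the lipid reagent Lipofectamine for 24 h, and the study asked which expression changes could contribute to proliferation. The labels do not say whether replicates are separate cultures, so p-values measure the spread between these libraries.

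p53 is a transcription factor that damaged or stressed cells stabilise. It switches on MDM2, which in turn marks p53 for destruction, together with genes for growth arrest, DNA repair and cell death. Death by the mitochondrial route is decided among BCL2 relatives. BAX, BAK1 and BOK permeabilise the outer membrane. MCL1, BCL2L1 (BCL-XL), BCL2L2 and BCL2 hold BAX and BAK1 back. BH3-only proteins such as BBC3 (PUMA), PMAIP1 (NOXA) and BIK neutralise these guardians. Death receptors open a separate route through CASP8, which CFLAR restrains, and IAP proteins block the caspases at the end of both routes.

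Library totals ranged from 33790733 to 45451279 counts. HKDC1 itself matched the labels in every library: it had 13578, 12231 and 14309 CPM in SW480 with HKDC1, against 38.4, 34.7 and 34.1 CPM in SW480 with empty vector, and 6580.3, 9179 and 9640.0 CPM in COLO320DM with HKDC1, against 0 to 1 count per library in COLO320DM with empty vector. CPM are counts scaled to a common library total, here with TMM factors. Replicate 1 of both plasmid groups stood apart from replicates 2 and 3 in each line. Summed over a list of 11 colonic epithelial markers, levels were 6585–9491 CPM in SW480, against 1578–1790 CPM in COLO320DM. On average 3 of the 11 were under 1 CPM in SW480, against 6 in COLO320DM. EPCAM was at 474–576 CPM in SW480, against 1.36–2.32 CPM in COLO320DM, and CDH1 was at 16.1–45.1 CPM in SW480, against 0–0.0926 CPM in COLO320DM. CDX2, the intestinal transcription factor, ran the other way, at 8.55–24.5 CPM in SW480, against 1373–1555 CPM in COLO320DM. The sum over 7 neuroendocrine markers was 59.3–80.6 CPM in SW480, against 27.4–38.5 CPM in COLO320DM, most of it from ENO2 at 53.2–77.04 CPM in SW480, against 24.5–34.01 CPM in COLO320DM. The sum over 5 immune markers was 0.802–1.54 CPM in SW480, against 31.8–41.9 CPM in COLO320DM, most of the COLO320DM sum being PTPRC at 29.0–38.3 CPM, with CD3E at 0–0.0238 CPM there. The sum over 7 fibroblast and endothelial markers was 2.80–6.40 CPM in SW480, against 39.5–64.1 CPM in COLO320DM, where COL3A1 had 27.1–47.1 CPM. The line differences below run beside these marker differences, and their part in them was not tested.

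The RefSeq promoter table (GRCh38.p14; 250 bases before to 50 bases after an annotated start) held windows for 34 of the 42 genes, 64 windows in all. The p53 consensus decamer was searched for as an exact match in every window; its pattern reads the same on both strands. It was found in windows of 8 of the 34 genes (23.5%), against 2201 of all 27303 genes in the table (8.06%). Counted by window, it was in 8 of 64 (12.5%), against 6.63% of all 35114 windows. The following windows are shown because their genes moved between the lines in both directions. DDB2, AEN and FAS were higher in SW480, and SESN1 and BAK1 were lower. Sequences are from RefSeq, 5′ to 3′ on the gene's strand, and capitals mark the decamers.
DDB2, chr11:47214724-47215023, plus strand: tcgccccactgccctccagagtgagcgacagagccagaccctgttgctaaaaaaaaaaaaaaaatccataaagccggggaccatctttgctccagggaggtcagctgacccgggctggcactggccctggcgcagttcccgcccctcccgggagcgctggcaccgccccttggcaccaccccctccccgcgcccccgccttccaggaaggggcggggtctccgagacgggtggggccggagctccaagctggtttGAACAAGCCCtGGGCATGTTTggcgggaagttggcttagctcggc
AEN, chr15:88621090-88621389, plus strand: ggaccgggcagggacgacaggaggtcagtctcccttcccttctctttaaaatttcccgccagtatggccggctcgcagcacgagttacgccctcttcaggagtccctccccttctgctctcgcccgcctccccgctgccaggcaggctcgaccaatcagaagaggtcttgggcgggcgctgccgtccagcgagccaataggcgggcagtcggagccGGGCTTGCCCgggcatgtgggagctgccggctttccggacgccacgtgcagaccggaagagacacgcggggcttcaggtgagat
FAS, chr10:88991181-88991480, plus strand: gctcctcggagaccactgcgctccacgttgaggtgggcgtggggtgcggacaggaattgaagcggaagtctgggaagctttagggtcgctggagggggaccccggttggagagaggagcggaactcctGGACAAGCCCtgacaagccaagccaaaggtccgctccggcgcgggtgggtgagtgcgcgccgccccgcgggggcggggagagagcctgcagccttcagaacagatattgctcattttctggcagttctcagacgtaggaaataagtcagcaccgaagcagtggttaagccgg
SESN1, chr6:109008939-109009238, minus strand: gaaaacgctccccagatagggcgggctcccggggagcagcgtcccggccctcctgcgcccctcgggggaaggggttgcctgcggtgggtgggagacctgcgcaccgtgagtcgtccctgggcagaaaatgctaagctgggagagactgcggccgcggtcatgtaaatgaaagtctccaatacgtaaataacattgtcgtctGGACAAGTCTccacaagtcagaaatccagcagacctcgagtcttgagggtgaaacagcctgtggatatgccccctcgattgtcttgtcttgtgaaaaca
BAK1, chr6:33580227-33580526, minus strand: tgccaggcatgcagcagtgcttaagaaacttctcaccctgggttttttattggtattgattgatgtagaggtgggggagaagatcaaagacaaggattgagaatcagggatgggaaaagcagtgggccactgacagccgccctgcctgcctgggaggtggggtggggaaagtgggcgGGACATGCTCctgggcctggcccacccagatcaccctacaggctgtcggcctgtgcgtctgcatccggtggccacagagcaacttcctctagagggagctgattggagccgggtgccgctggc

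Counting the annotated start of the window as +1, the DDB2 decamers began at 6 and 17, with 1 base between them. Such a pair, with at most 13 bases between its decamers, was in 1 of the 64 windows and in 0.0285% of all windows. The single decamers began at -34 in AEN, -122 in FAS, -49 in SESN1 and -73 in BAK1. The other 3 genes with a decamer in a window were CASP9 at -188, CASP8 at -121 and FDXR at -11. DDB2, FAS, SESN1, CASP9, CASP8 and FDXR also had windows at other annotated starts, and those held no decamer. The windows with a decamer in DDB2, FAS, SESN1, CASP9 and CASP8 lie inside the deposited gene span. Which start these cells use was not tested. With empty vector, edgeR called 5 of these 8 genes higher in SW480 and 2 lower, against 37.3% and 34.3% of all tested genes, and FDXR was not called. The GC box GGGCGG (or its reverse complement CCGCCC) was in 75% of the members' windows against 45.0% of all windows, and the TATA box TATAAA (or TTTATA) was in 4.69% against 11.5%. A match is a description of these letters and is not a measured site.

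Between the cell lines, p53 targets and apoptosis genes differed widely and in both directions. With empty vector, 20 of the 41 genes that passed the filter on low counts were higher in SW480 and 12 were lower, by edgeR's quasi-likelihood test at a Benjamini-Hochberg adjusted p under 0.05. The same test called 37.3% of all 23684 tested genes higher and 34.3% lower (71.6% in either direction), so the share of called members, 32 of 41, lies near the background. With the HKDC1 plasmid in both lines, 20 members were higher and 13 lower, against 37.4% and 33.5% of tested genes (70.8% in either direction). The libraries of the lines did not overlap for 19 members higher in SW480 and 12 lower with empty vector, against 38.0% and 35.3% of tested genes. With HKDC1 these were 20 and 13 members, against 39.2% and 36.0%. Non-overlap between the lines, given for single genes below, was thus common over all genes. Of the members, 30 were called with the same sign under both plasmids. That share was not counted over all tested genes, of which 71.6% and 70.8% were called, so the 30 sets no member apart. The median log2 fold change of the members was 0.40 with empty vector and 0.28 with HKDC1, against 0.04 and 0.05 over all tested genes. A log2 size of at least 2 was reached by 13 called members, against 26.1% of tested genes, and of at least 3 by 7 members, against 19.0%. BCL2A1, an anti-apoptotic gene left out by the filter, had 0 to 5 counts per library. In bulk RNA, fewer cells expressing a gene and less RNA per cell cannot be told apart.

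**Figure D1:**
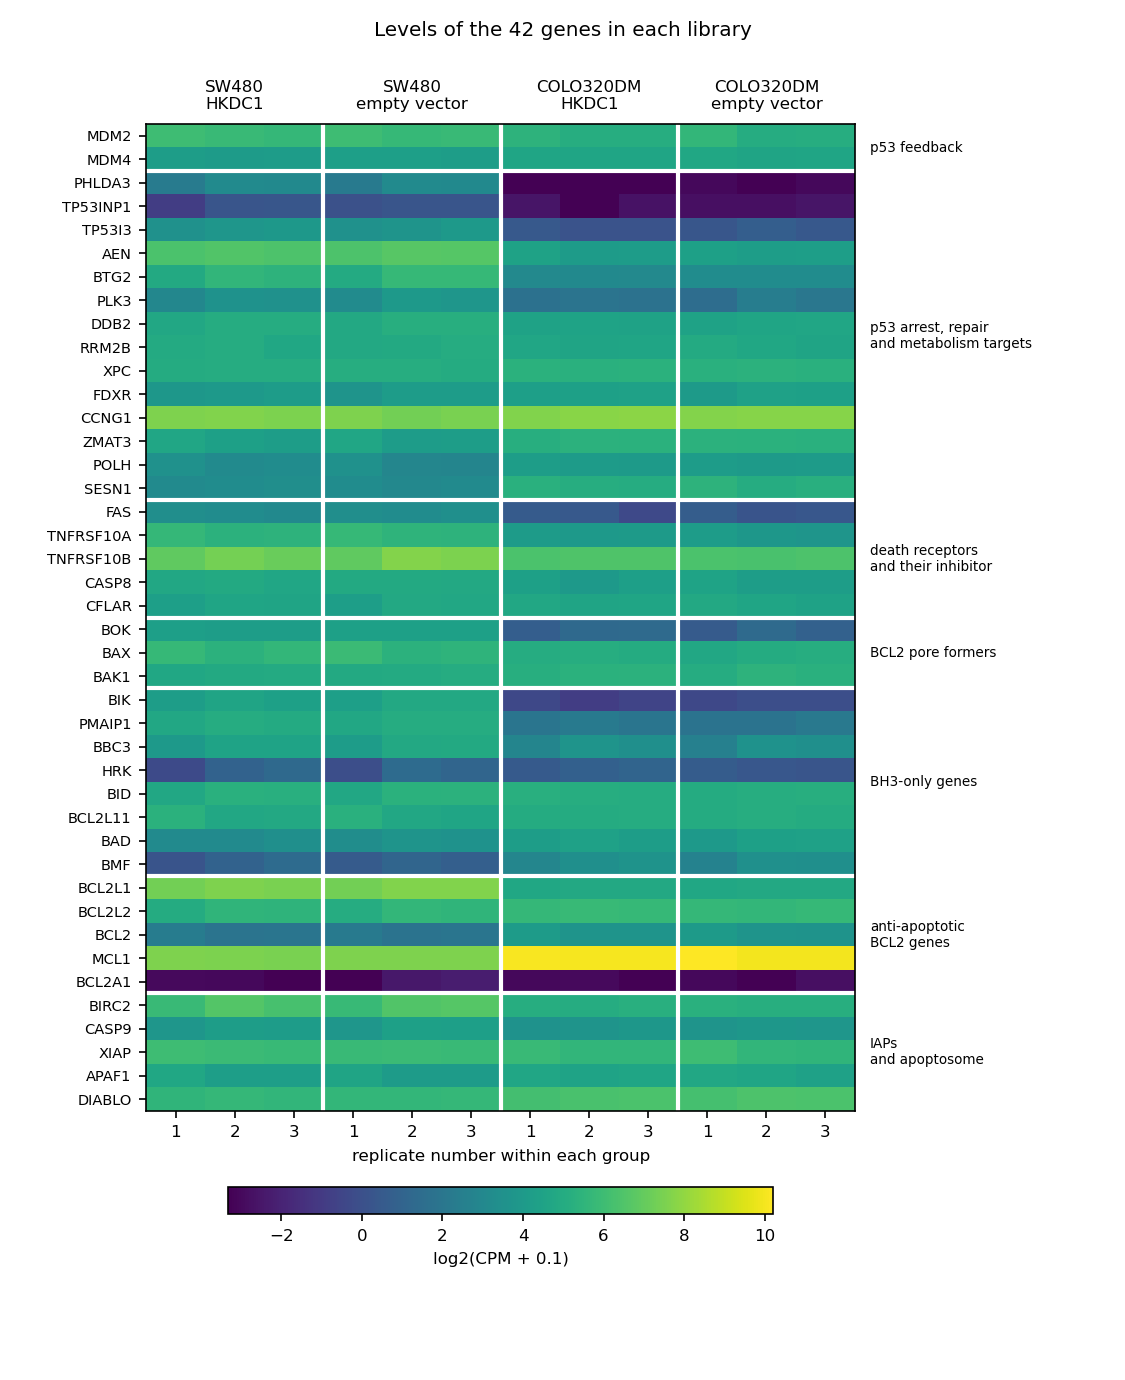
Level of each of the 42 genes (rows, grouped by role) in each of the 12 libraries (columns, 3 replicates per group), as log2(CPM + 0.1). MCL1 is the brightest row in COLO320DM, at 987–1183 CPM, while PHLDA3, TP53INP1 and BIK are dark there and brighter in SW480.

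The p53 feedback genes moved apart. MDM2 (chr12:68808177-68850686, plus strand), the ligase that p53 induces against itself, had 63.5, 54.2 and 56.5 CPM in SW480 with empty vector, against 49.3, 33.2 and 34.7 CPM in COLO320DM with empty vector. With HKDC1 it had 63.6, 57.2 and 51.7 CPM in SW480, against 43.4, 33.9 and 34.9 CPM in COLO320DM. All SW480 values lay above all COLO320DM values, and the log2 fold change was 0.57 ± 0.15 (SE; adjusted p = 0.0038) with empty vector and 0.62 ± 0.15 with HKDC1. MDM4, which binds and inhibits p53 without degrading it, had 19.9, 20.02 and 18.1 CPM in SW480 with empty vector, against 27, 24.1 and 24.9 CPM in COLO320DM with empty vector. With HKDC1 its levels were 18.5, 17.3 and 17.7 CPM in SW480, against 24.6, 24.9 and 24.4 CPM in COLO320DM. The groups did not overlap under either plasmid, and MDM4 was lower in SW480 by edgeR (log2 fold change -0.39 ± 0.09, adjusted p = 0.0013 with empty vector).

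Of all tested genes, 37.3% were called higher in SW480 and 34.3% lower with empty vector. Of the 14 p53 targets for arrest, repair and metabolism, 7 were higher in SW480, 5 were lower and 2 (RRM2B and FDXR) were not called. The largest gap was in PHLDA3 (chr1:201464278-201469237, minus strand), an inhibitor of AKT, with 181, 323 and 390 counts in SW480 with empty vector, against 1, 0 and 1 counts in COLO320DM with empty vector. The summed counts scaled by library gave a ratio of 472 (exact 95% interval 130.4–3907, counting error only). With HKDC1 it had 169, 358 and 300 counts in SW480, against 0 in all 3 COLO320DM libraries, which is at least 276-fold higher against a floor of 3 counts over the group. PHLDA3 was thus nearly undetected in COLO320DM and present in every SW480 library. TP53INP1, a stress-induced p53 cofactor, was also near the detection limit in COLO320DM, with 36, 40 and 50 counts in SW480 with empty vector, against 2, 2 and 3 counts in COLO320DM with empty vector (ratio 19.0, exact 95% interval 8.97–48.3). With HKDC1 the counts were 16, 44 and 39 in SW480, against 3, 0 and 2 in COLO320DM.

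TP53I3, an oxidoreductase gene, had 11.3, 12.6 and 15.5 CPM in SW480 with empty vector, against 1.13, 1.55 and 1.23 CPM in COLO320DM with empty vector (log2 fold change 3.33 ± 0.19, edgeR adjusted p = 3e-09). AEN, a nuclease gene, was higher by 2.31 ± 0.11 and BTG2, an antiproliferative gene, by 2.28 ± 0.21 on the log2 scale. PLK3, a stress kinase, differed by 1.72 ± 0.25 and DDB2, a DNA damage sensor, by 0.46 ± 0.11. For all 5 genes every SW480 library lay above every COLO320DM library under both plasmids. Over all tested genes, 38.0% lay above in this way with empty vector and 39.2% with HKDC1. SESN1, a sestrin that restrains mTORC1, went the other way, with 9.37, 7.85 and 8.75 CPM in SW480 with empty vector, against 42.9, 33.4 and 37 CPM in COLO320DM with empty vector (log2 fold change -2.12 ± 0.12, edgeR adjusted p = 3.2e-09). POLH, the translesion polymerase, had 11.3, 7.36 and 7.10 CPM in SW480, against 17.6, 16.3 and 16.9 CPM in COLO320DM, both with empty vector (-0.98 ± 0.17). ZMAT3, an RNA-binding p53 target, had 25.7, 17.5 and 18.7 CPM in SW480, against 41.2, 40.1 and 38.7 CPM in COLO320DM, both with empty vector (-0.95 ± 0.15). For these 3 genes every SW480 library lay below every COLO320DM library. Smaller falls were called for CCNG1, a cyclin (-0.28 ± 0.09, adjusted p = 0.013 by edgeR), and XPC, a damage recognition gene (-0.23 ± 0.08, adjusted p = 0.016). CCNG1 was not called with HKDC1 (-0.14 ± 0.09, adjusted p = 0.16), while RRM2B, a ribonucleotide reductase subunit, and FDXR, a mitochondrial reductase, were called only there by edgeR (0.28 ± 0.11 and -0.37 ± 0.15). The difference between the plasmids in these 3 genes was not called (adjusted p = 1 for each). XPC shares 23.8% of its exon bases with an antisense gene, XPC-AS1, and its reads could not be told apart from that gene's.

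The members hold 5 genes of the death receptor route: the receptors FAS, TNFRSF10A and TNFRSF10B, with CASP8 and CFLAR. Of these, 4 were called higher in SW480, against 37.3% of all tested genes. Other genes of the route, named after their values were seen, went both ways. The FAS ligand gene FASLG was at least 149-fold higher in SW480 with empty vector, against a floor of 3 counts in COLO320DM. Lower in SW480 were the initiator caspase CASP10 (-5.46 ± 0.30) and the decoy receptors TNFRSF10C (-3.57 ± 0.34) and TNFRSF10D (-0.75 ± 0.30, edgeR adjusted p = 0.036). They come from a list of apoptosis genes with 28 tested, of which 14 were called higher and 7 lower, against 37.3% and 34.3% of all tested genes. FAS (chr10:88990531-89017059, plus strand) had 10.1, 9.51 and 10.5 CPM in SW480 with empty vector, against 1.48, 1.05 and 1.16 CPM in COLO320DM with empty vector, an edgeR log2 fold change of 3.02 ± 0.22 (adjusted p = 3.6e-08). The TRAIL receptor TNFRSF10A had 53.6, 44.9 and 42.5 CPM in SW480, against 17.6, 14.4 and 13.2 CPM in COLO320DM, both with empty vector (1.64 ± 0.14). The second TRAIL receptor, TNFRSF10B, differed by 1.04 ± 0.17 with empty vector and by 0.69 ± 0.16 with HKDC1. CASP8, the initiator caspase, differed by 0.55 ± 0.12. CFLAR, its inhibitor, was not called (-0.03 ± 0.15, edgeR adjusted p = 0.86), and its sign turned without replicate 1 of either empty-vector group. On the per-length scale TNFRSF10B led the class in SW480 with empty vector at 34.3 ± 8.95 RPKM (SD, n = 3), against 16.7 ± 0.459 RPKM in COLO320DM with empty vector. RPKM here are the same CPM divided by the deposited gene length in kilobases. The opposite-strand gene ACTA2 and another opposite-strand gene overlap FAS over 6.81% and 18.7% of its exon bases.

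Of the 3 pore formers, BOK and BAX were higher in SW480 and BAK1 was lower. BOK (chr2:241551424-241574131, plus strand) had 19.8, 18.2 and 18.7 CPM in SW480 with HKDC1 and 20.7, 20.8 and 20.2 CPM in SW480 with empty vector. In COLO320DM it had 1.54, 2.35 and 2.49 CPM with HKDC1 and 1.37, 2.45 and 1.74 CPM with empty vector. That is a step of 3.47 ± 0.21 on the log2 scale with empty vector (edgeR adjusted p = 5.3e-09), with no overlap. BAX had 53.3, 41.1 and 49.2 CPM in SW480 with HKDC1 and 58.8, 41.2 and 44.6 CPM in SW480 with empty vector. COLO320DM had 33.3, 34.2 and 31.5 CPM of BAX with HKDC1 and 28, 32.5 and 34.6 CPM with empty vector. The BAX difference was 0.60 ± 0.14 with empty vector (edgeR adjusted p = 0.0015), with every SW480 library higher. BAK1 had 26.8, 29.3 and 30.8 CPM in SW480 with HKDC1 and 29.2, 31.3 and 32.7 CPM in SW480 with empty vector. Its COLO320DM levels were 35.8, 39.6 and 42 CPM with HKDC1 and 33.7, 42.1 and 39 CPM with empty vector. The fall in SW480 was called under both plasmids (-0.30 ± 0.10, edgeR adjusted p = 0.019 with empty vector; -0.43 ± 0.10 with HKDC1).

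Among the 8 BH3-only genes, 3 were higher in SW480, 2 were lower and 3 were not called with empty vector. The shares over all tested genes were 37.3% higher and 34.3% lower. BIK (chr22:43110750-43129712, plus strand) encodes a BH3-only protein of the endoplasmic reticulum. It had 19.6, 28.1 and 28.4 CPM in SW480, against 0.660, 0.858 and 0.856 CPM in COLO320DM, both with empty vector. This was the second largest positive change among the members (5.00 ± 0.21, edgeR adjusted p = 1.5e-10). PMAIP1 (NOXA), which preferentially binds MCL1, had 27.2, 33.5 and 33.2 CPM in SW480 with empty vector, against 3.49, 3.46 and 4.40 CPM in COLO320DM with empty vector (3.05 ± 0.14). BBC3 (PUMA) differed by 1.43 ± 0.29 with empty vector and by 1.04 ± 0.29 with HKDC1. In BIK and PMAIP1, and in BBC3, every SW480 library was above every COLO320DM library. BMF, an anoikis-linked BH3-only gene, had 1.38, 2.02 and 1.63 CPM in SW480 with empty vector, against 6.32, 10.8 and 10.5 CPM in COLO320DM with empty vector (-2.46 ± 0.31). BAD, which antagonises BCL-XL, had 9.86, 12.5 and 11.8 CPM in SW480 with empty vector, against 15.7, 20.4 and 21.2 CPM in COLO320DM with empty vector (-0.75 ± 0.14). Both were lower in all SW480 libraries, and BAD shares 23.7% of its exon bases with GPR137 on the other strand. BID, BCL2L11 (BIM) and HRK were not called under either plasmid, with log2 fold changes of 0.08 ± 0.16, -0.13 ± 0.16 and 0.56 ± 0.41 with empty vector.

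**Figure D2:**
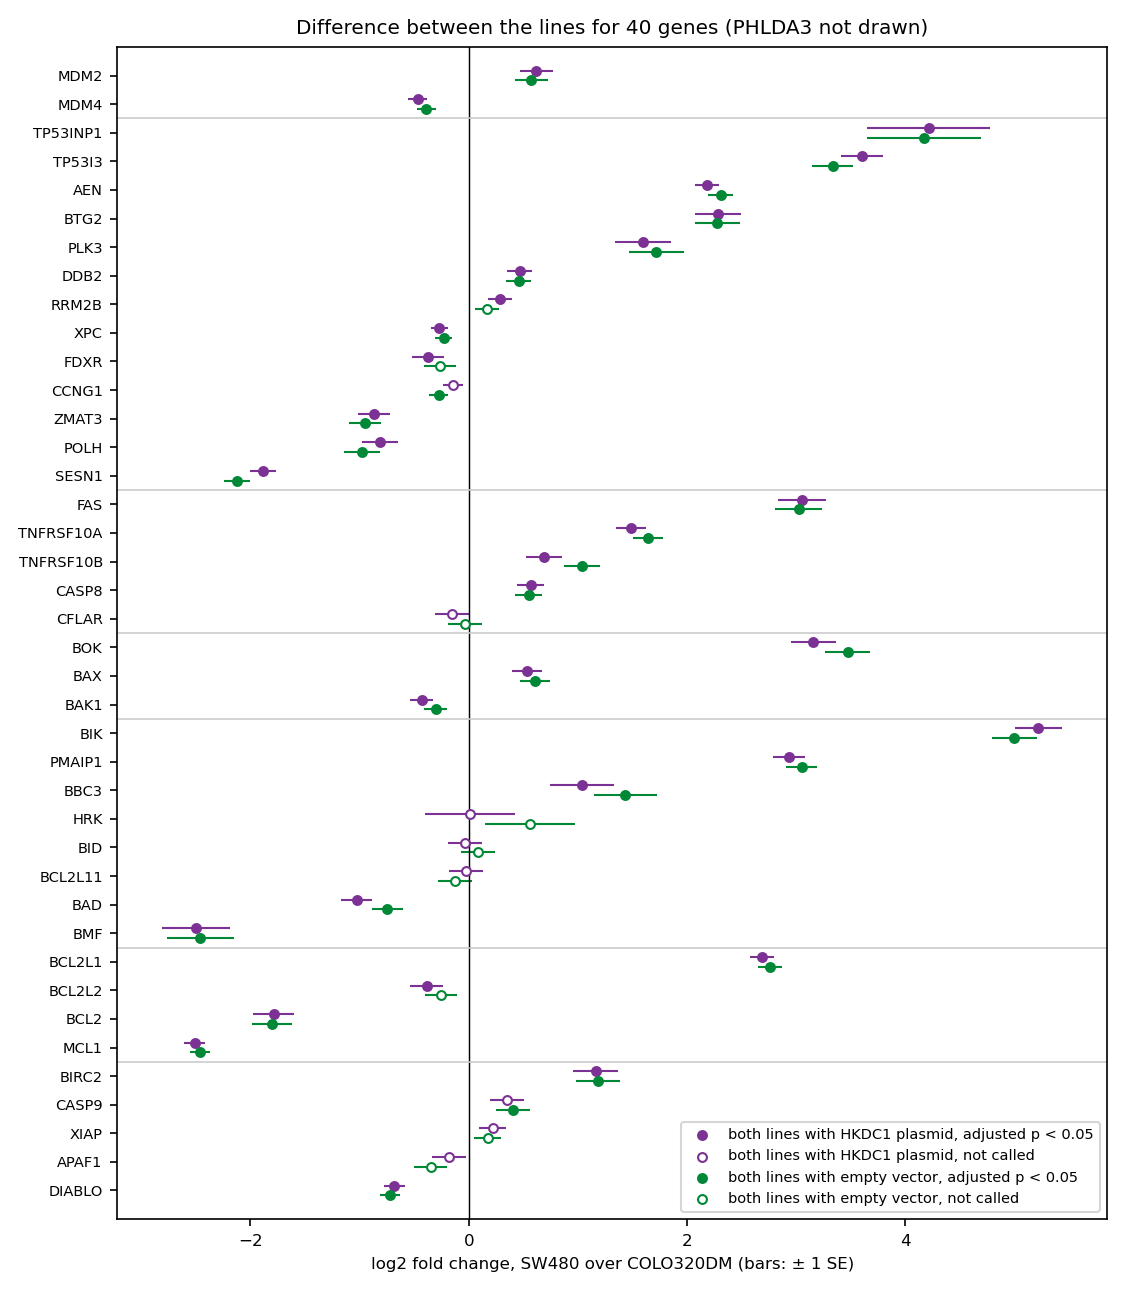
Log2 fold change of SW480 over COLO320DM for 40 genes, with both lines on HKDC1 (purple) or on empty vector (green); filled points had an edgeR adjusted p under 0.05 and bars are 1 SE either way. BIK, at 5.00 with empty vector, is the rightmost gene, MCL1 and BMF, both at -2.46, are the leftmost, and PHLDA3 is left out because COLO320DM had almost no counts for it.

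Among the anti-apoptotic genes, MCL1 led in COLO320DM, while MCL1 and BCL2L1 were near each other in SW480. Mean CPM in SW480 with empty vector were 193 for MCL1 and 186 for BCL2L1. With HKDC1 they were 185 and 177. The order of these genes in SW480 was the reverse on the per-length scale given below. MCL1 (chr1:150574551-150579738, minus strand) had 191, 187 and 177 CPM in SW480 with HKDC1 and 191, 196 and 192 CPM in SW480 with empty vector. In COLO320DM it had 1092, 1025 and 1042 CPM with HKDC1 and 1183, 1020.4 and 987 CPM with empty vector. It was lower in SW480 by edgeR (-2.46 ± 0.09, adjusted p = 7.2e-11 with empty vector), with no overlap. BCL2L1 (BCL-XL; chr20:31664452-31723989, minus strand) ran the other way, at 161, 191 and 178 CPM in SW480 with HKDC1 and 158, 200.2 and 201 CPM in SW480 with empty vector. COLO320DM had 26.2, 28.1 and 28.2 CPM of BCL2L1 with HKDC1 and 26.1, 28.1 and 28.2 CPM with empty vector, and the log2 fold change was 2.76 ± 0.11 with empty vector (edgeR adjusted p = 1.2e-10). The antisense gene ABALON overlaps 43.0% of the BCL2L1 exon bases, and the reads of the pair could not be told apart. BCL2 had 4.95, 3.62 and 3.72 CPM in SW480 with HKDC1 and 4.67, 3.51 and 3.78 CPM in SW480 with empty vector. Its COLO320DM levels were 16.9, 12.7 and 12.8 CPM with HKDC1 and 16.5, 12.8 and 12.4 CPM with empty vector, so it was lower in SW480 (-1.80 ± 0.18, edgeR adjusted p = 1.2e-06). BCL2L2 (BCL-W) had 32.2, 45.4 and 44.9 CPM in SW480 with HKDC1 and 33.5, 49.9 and 46.3 CPM in SW480 with empty vector. COLO320DM had 50.6, 55.2 and 54.3 CPM of BCL2L2 with HKDC1 and 51.4, 49.6 and 53.8 CPM with empty vector. BCL2L2 was not called with empty vector (-0.26 ± 0.15, edgeR adjusted p = 0.14). With HKDC1 in both lines edgeR called it lower in SW480, and the groups did not overlap. The difference between the plasmids in BCL2L2 was not called. It shares 19.4% of its exon bases with the readthrough gene BCL2L2-PABPN1 on the same strand.

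Per unit of length, MCL1 made up 37.8–43.8% of the summed anti-apoptotic RPKM in the SW480 libraries, against 91.0–92.6% in the COLO320DM libraries. BCL2L1 made up 47.8–52.3% in SW480, against 2.70–3.43% in COLO320DM. The sum itself was 99.6–118 RPKM over the 6 SW480 libraries, against 248–292 RPKM over the 6 COLO320DM libraries. Both genes are thus near each other in SW480 with empty vector, at 56.3 ± 7.51 RPKM for BCL2L1 and 44.1 ± 0.665 RPKM for MCL1. In COLO320DM with empty vector BCL2L1 was at 8.29 ± 0.358 RPKM and MCL1 at 243 ± 24 RPKM (SD, n = 3 each).

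**Figure D3:**
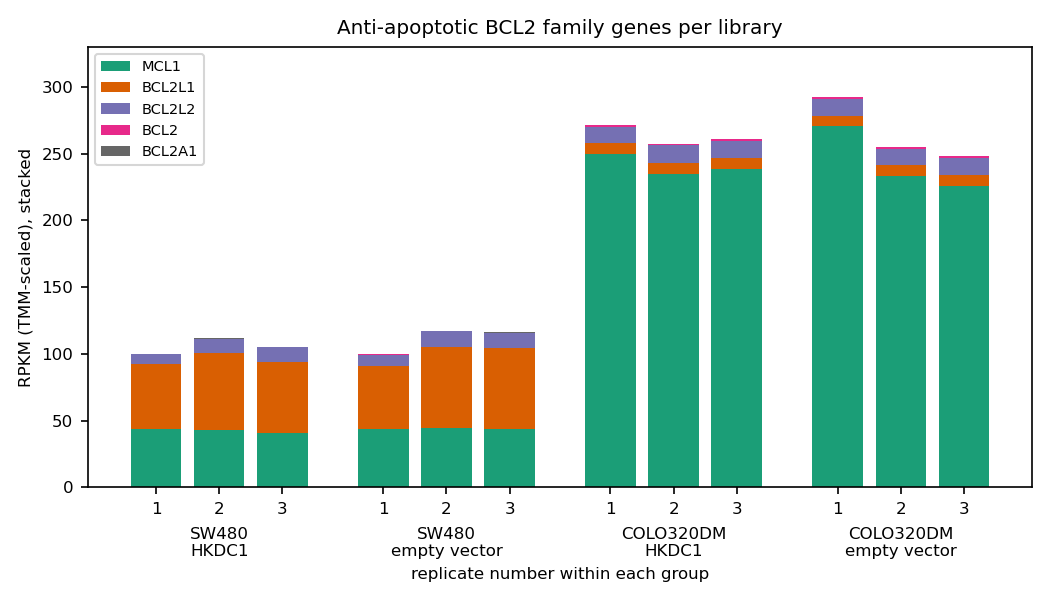
Stacked RPKM of the 5 anti-apoptotic BCL2 genes in each of the 12 libraries, 3 replicates per group. BCL2L1 and MCL1 share most of each SW480 bar, while MCL1 takes 91.0–92.6% of each COLO320DM bar.

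Of the IAP and apoptosome genes, BIRC2 (cIAP1) was higher in SW480 (1.18 ± 0.20, edgeR adjusted p = 0.00015 with empty vector) and so was CASP9, the apoptosome's caspase (0.40 ± 0.16, adjusted p = 0.035). CASP9 was not called with HKDC1 (0.35 ± 0.16, edgeR adjusted p = 0.065). DIABLO (SMAC), which releases caspases from IAPs, had 48.9, 48.8 and 51.1 CPM in SW480 with empty vector, against 73.7, 87.2 and 84.5 CPM in COLO320DM with empty vector (-0.72 ± 0.09, edgeR adjusted p = 1.1e-05). All SW480 values of DIABLO were the lower ones, but 31.4% of its exon bases lie in a same-strand gene that shares its reads. XIAP (0.17 ± 0.12) and APAF1, the apoptosome scaffold (-0.35 ± 0.15, edgeR adjusted p = 0.055), were not called.

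The HKDC1 plasmid left the p53 and apoptosis genes with small differences. In SW480 edgeR called 0 of the 41 members, where it called 3 of all 23684 tested genes (0.0127%). In COLO320DM it called 0 of 41, where it called 2 tested genes (0.00844%). No member reached an unadjusted p under 0.05 in either line, against 356 and 312 tested genes, and DESeq2 and limma-voom called 0 members as well. Excluding PHLDA3, log2 fold changes ran from -0.35 to 0.19 in SW480 and from -0.49 to 0.41 in COLO320DM. The median SE was 0.15 in both lines. On simulated counts this test recovered 51% of genes changed by 1 on the log2 scale in SW480 and 48% in COLO320DM. The changed genes were drawn from all tested genes, at any level, so these shares do not give the recovery for the members.

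Because replicate 1 stood apart in both lines, and same-numbered libraries deviated together, the comparison was repeated with the replicate pair as a block. The numbers set replicate 1 apart but not replicates 2 and 3, which correlated as much with each other across plasmids (0.47 and 0.37 in SW480, 0.16 and 0.15 in COLO320DM) as with their own number. The median SE of the members was 0.08 in both lines with the block. In SW480 this fit called 1 member lower, TNFRSF10B, and 0 higher, where it called 0.595% of tested genes lower and 0.165% higher (0.76% in all). TNFRSF10B (chr8:23020133-23069031, minus strand), a TRAIL receptor, had 118, 164 and 141 CPM in SW480 with HKDC1, against 121, 207 and 187 CPM in SW480 with empty vector. It was lower with HKDC1 in 3 of 3 pairs, but the groups overlapped, and replicate 1 was low with both plasmids. The blocked log2 fold change was -0.26 ± 0.06 (edgeR adjusted p = 0.025), against -0.28 ± 0.16 without the block (adjusted p = 1). It lost the call in limma-voom with the block, and without pair 2 or pair 3. In COLO320DM TNFRSF10B had 84.2, 90.2 and 88.6 CPM with HKDC1, against 84.2, 81.2 and 85.7 CPM with empty vector (0.07 ± 0.06, edgeR adjusted p = 0.96 with the block). The difference between the lines was not called (-0.33 ± 0.09, edgeR adjusted p = 0.21 with the block).

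Another 9 members reached an unadjusted p under 0.05 in SW480 with the block without passing adjustment, where 2360 tested genes reached it. BBC3 had 15.5, 23.1 and 23.2 CPM in SW480 with HKDC1, against 17.7, 28.8 and 29.9 CPM in SW480 with empty vector (blocked log2 fold change -0.30 ± 0.08, edgeR adjusted p = 0.073). PLK3 had 7.56, 11.6 and 11.4 CPM in SW480 with HKDC1, against 9.19, 16 and 13.9 CPM in SW480 with empty vector (-0.35 ± 0.11, edgeR adjusted p = 0.13). Both genes were lower with HKDC1 in 3 of 3 pairs, with overlapping groups. BIK had 18.4, 24 and 20.9 CPM in SW480 with HKDC1, against 19.6, 28.1 and 28.4 CPM in SW480 with empty vector (-0.26 ± 0.09, edgeR adjusted p = 0.21). BAD had 8.73, 8.93 and 10.6 CPM in SW480 with HKDC1, against 9.86, 12.5 and 11.8 CPM in SW480 with empty vector (-0.28 ± 0.10, edgeR adjusted p = 0.23). Here too each pair was lower with HKDC1. The other lower ones were BTG2 (-0.17 ± 0.07) and AEN (-0.14 ± 0.06), and CCNG1 (0.13 ± 0.06), APAF1 (0.17 ± 0.08) and POLH (0.20 ± 0.10) lay above 0. SESN1, the remaining gene of small p above 0 without the block, had 8.96, 9.49 and 10.3 CPM in SW480 with HKDC1, against 9.37, 7.85 and 8.75 CPM in SW480 with empty vector (0.15 ± 0.09 with the block).

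**Figure D4:**
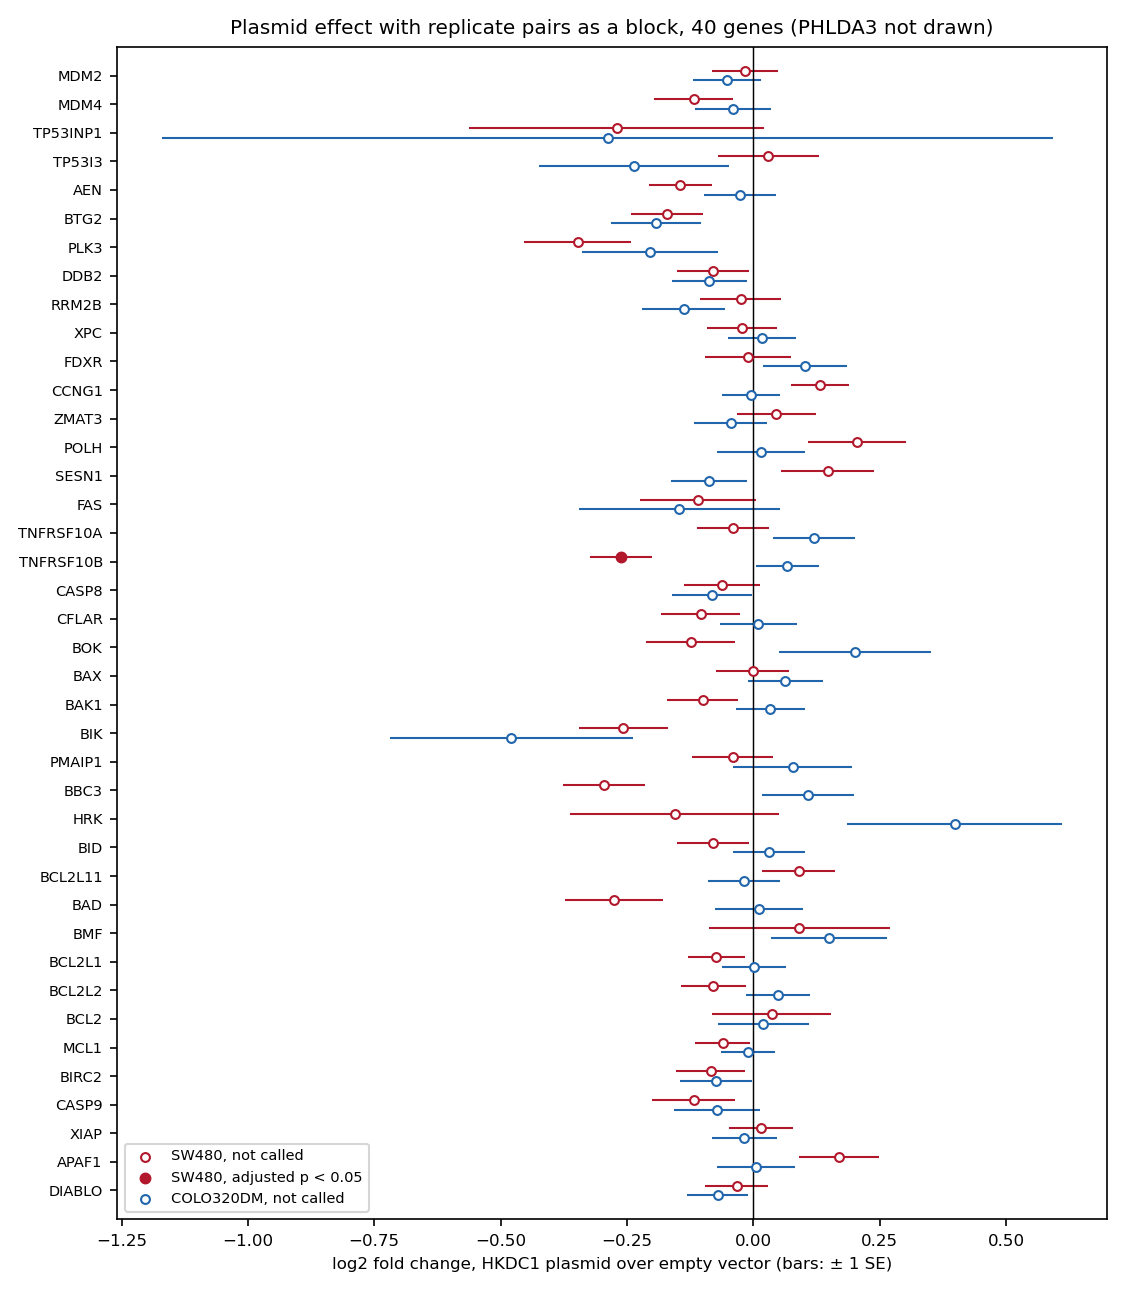
Log2 fold change of HKDC1 plasmid over empty vector in SW480 (red) and COLO320DM (blue) for 40 genes, fitted with the replicate pair as a block; bars are 1 SE either way, the filled point had an edgeR adjusted p under 0.05 and open points did not. TNFRSF10B in SW480, at -0.26, is the filled point, and most SW480 points lie left of 0.

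In SW480, 30 of the 41 members had a log2 fold change below 0 without the block and with it, with a median of -0.06 against 0 over all tested genes. Lower values with HKDC1 in 3 of 3 pairs were seen for 14 members, against 14.4% of tested genes: TNFRSF10B, BBC3, BIK, PLK3, BAD, BTG2, AEN, BID, BAK1, BCL2L2, CASP9, DDB2, BOK and MDM4. Higher values in 3 of 3 pairs were seen for CCNG1, APAF1 and BCL2L11, against 14.0% of tested genes. BOK was the 1 member whose SW480 groups did not overlap, with HKDC1 below empty vector, against 2.28% of tested genes lower and 2.16% higher. Its difference was -0.12 ± 0.09 with the block (edgeR adjusted p = 0.71). The members are not independent of each other, and these counts carry no test.

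In COLO320DM 19 members lay above 0 and 22 below in both fits, with a median of -0.01. The block called 0 members there, where it called 0.076% of tested genes, and 1 member (BTG2) had an unadjusted p under 0.05, against 1292 tested genes. BTG2 had 8.22, 8.57 and 8.02 CPM in COLO320DM with HKDC1, against 9.33, 9.49 and 9.54 CPM in COLO320DM with empty vector (-0.19 ± 0.09, edgeR adjusted p = 0.91 with the block). BIK was at 0.659, 0.448 and 0.579 CPM in COLO320DM with HKDC1, against 0.660, 0.858 and 0.856 CPM in COLO320DM with empty vector (-0.48 ± 0.24, edgeR adjusted p = 0.92). BTG2 and BIK were the 2 members whose groups did not overlap, both with HKDC1 lower, against 4.22% of tested genes lower and 3.52% higher. The next smallest p below 0 belonged to PHLDA3, which had 0 counts with HKDC1 and 2 with empty vector, and RRM2B (-0.14 ± 0.08 with the block). Above 0 they belonged to HRK (1.32, 1.65 and 1.94 CPM in COLO320DM with HKDC1, against 1.44, 1.17 and 1.09 CPM with empty vector), BOK (0.20 ± 0.15) and TNFRSF10A (0.12 ± 0.08). In 3 of 3 pairs, 1 member was higher (TNFRSF10B, against 13.3% of tested genes) and 3 were lower (BIK, BTG2 and DIABLO, against 13.8%).

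The difference between the lines in the plasmid effect, SW480 minus COLO320DM, was called for 0 of 41 members without the block and with it, against 0.00844% and 0.0422% of tested genes. By edgeR 0 members had an unadjusted p under 0.05 without the block and 3 with it, BBC3 (-0.40 ± 0.12), TNFRSF10B (-0.33 ± 0.09) and BAD (-0.29 ± 0.13). BOK (-0.33 ± 0.17), SESN1 (0.24 ± 0.12), PHLDA3 and CCNG1 (0.14 ± 0.08) completed those of smallest p without the block. For the feedback genes, the SW480 plasmid effect with the block was -0.02 ± 0.06 for MDM2 and -0.12 ± 0.08 for MDM4, beside -0.05 ± 0.07 and -0.04 ± 0.08 in COLO320DM. For the pore formers BAX and BAK1 it was -0.0018 ± 0.07 and -0.10 ± 0.07 in SW480, beside 0.06 ± 0.07 and 0.03 ± 0.07 in COLO320DM. For MCL1 and BCL2L1 it was -0.06 ± 0.06 and -0.07 ± 0.06 in SW480, beside -0.01 ± 0.05 and 0.00 ± 0.06 in COLO320DM. None of these was called.

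Replicate 1 held an extreme value of many members. In SW480, 22 of the 42 members had their lowest value in replicate 1 with both plasmids and 8 had their highest there, against 32.5% and 30.1% of tested genes. In COLO320DM, 12 had their lowest value there and 13 their highest, against 25.8% and 24.7% of tested genes. AEN and CFLAR were lowest in replicate 1 in SW480 and highest in it in COLO320DM. CDKN1A, the p53 target that encodes the CDK inhibitor p21, had 18.8, 61.2 and 51.7 CPM in SW480 with HKDC1 and 19.3, 64.8 and 63.9 CPM in SW480 with empty vector. CDKN1A was low in the first library of both SW480 groups. When replicate 1 of every group was left out, edgeR called 3 members lower in SW480, where it called 720 of 23759 genes (3.03%): TNFRSF10B (-0.39, adjusted p = 0.00043), BBC3 (-0.36, adjusted p = 0.017) and BIK (-0.35, adjusted p = 0.027). TNFRSF10B then also differed between the lines (-0.49, edgeR adjusted p = 0.011), where 0.316% of genes were called. COLO320DM had 0 members called without replicate 1, where 0.0337% of genes were called. Mitochondrial genes took 7.17% and 7.40% of the counts in replicate 1 of SW480, against 6.32–6.48% in replicates 2 and 3. In COLO320DM they took 9.40% and 8.90% in replicate 1, against 7.59–7.80% in replicates 2 and 3. The part of this share in the replicate 1 difference was not tested.

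**Figure D5:**
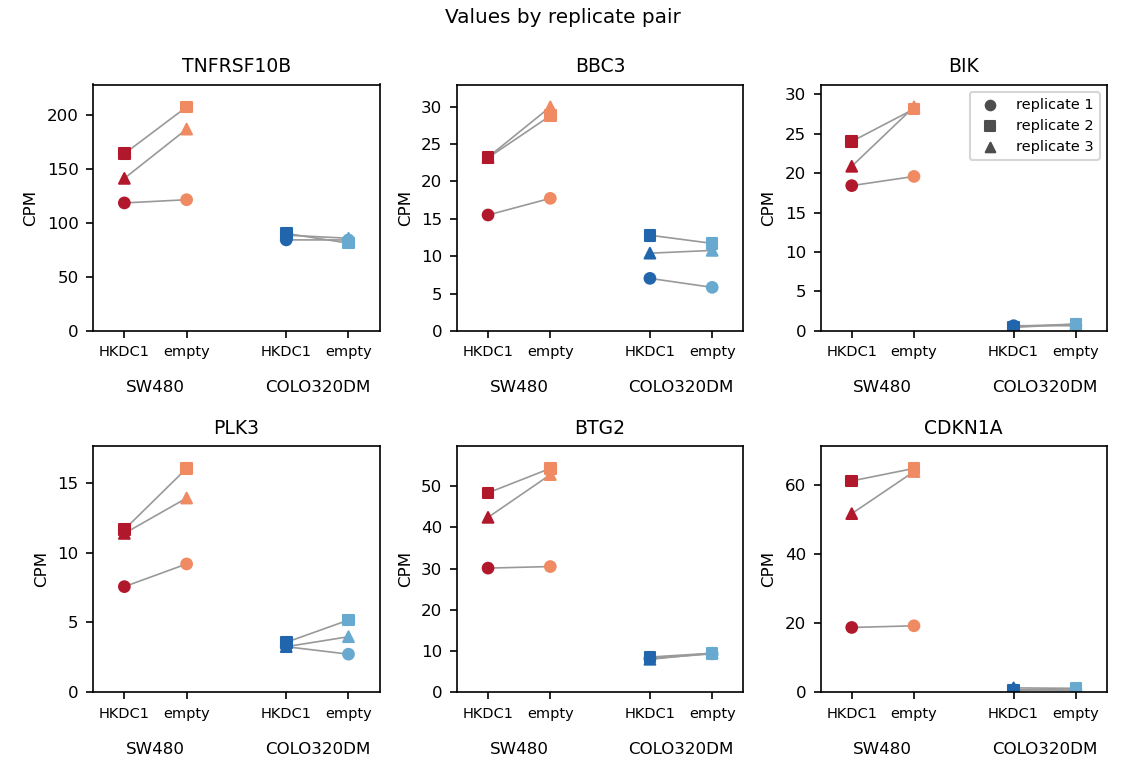
CPM of TNFRSF10B, BBC3, BIK, PLK3, BTG2 and CDKN1A in each library, with HKDC1 left of empty vector in each line and lines joining same-numbered libraries (circles replicate 1, squares 2, triangles 3). In SW480 replicate 1 is low with both plasmids, and the joined lines of TNFRSF10B, BBC3, BIK, PLK3 and BTG2 rise toward empty vector.

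Other genes of the p53 network and of apoptosis, taken from lists of 30 genes each, also differed between the lines. With empty vector, edgeR called 15 of 27 tested p53 network genes higher in SW480 and 7 lower, against 37.3% and 34.3% of all tested genes. CDKN1A had 19.3, 64.8 and 63.9 CPM in SW480, against 0.636, 1.07 and 1.18 CPM in COLO320DM, both with empty vector (log2 fold change 5.67 ± 0.57, adjusted p = 1.1e-06 by edgeR). The largest positive changes were in GPX1, a glutathione peroxidase (99.9, 122 and 123 CPM in SW480, against 0.0236, 0.0953 and 0.208 CPM in COLO320DM), SFN (14-3-3σ; 9.41 ± 0.50) and CD82, a tetraspanin (7.36 ± 0.37). The largest negative ones were in CDIP1 (-5.07 ± 0.14), TP63, a p53 relative (-3.21 ± 0.66), and PPM1D, a phosphatase that restrains p53 (-1.03 ± 0.10). Of 28 tested apoptosis genes, 14 were higher in SW480 and 7 lower, against the same 37.3% and 34.3% of all tested genes. FASLG, the FAS ligand, had 113, 142 and 167 counts in SW480 with empty vector, against 0 in all 3 COLO320DM libraries, which is at least 149-fold higher. RIPK3, a necroptosis kinase, had 22, 21 and 14 counts in SW480, against 0 in COLO320DM, both with empty vector, at least 20.1-fold higher by the same floor. MLKL, its substrate, was higher by 4.08 ± 0.31. CASP10 and TNFRSF10C, given above, were among the lower ones. With the block, edgeR called 1 p53 network gene higher with the HKDC1 plasmid in SW480 and 2 lower, against 0.165% and 0.595% of tested genes, and 0 in COLO320DM. These 3, named after their values were seen, were PCNA, the replication clamp (373, 230.4 and 242 CPM in SW480 with HKDC1, against 345, 179.6 and 201 CPM with empty vector; 0.24 ± 0.06, adjusted p = 0.02), GDF15 and GADD45A. GDF15, a stress cytokine gene, had 11.7, 83 and 77.7 CPM in SW480 with HKDC1, against 13, 117 and 112 CPM in SW480 with empty vector (-0.42 ± 0.07, edgeR adjusted p = 0.0013). GADD45A, a damage-response gene, had 101, 221 and 184 CPM in SW480 with HKDC1, against 107, 266 and 261 CPM in SW480 with empty vector (-0.29 ± 0.06, edgeR adjusted p = 0.018). GDF15 and GADD45A were lower with HKDC1 in 3 of 3 pairs and PCNA was higher in 3 of 3. The block called 0 apoptosis genes of the list in either line.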

How the data were processed

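The values are raw counts per gene for 12 libraries, deposited by the authors as 1 table with a position, a gene length and whole-number counts. Per the submitters' processing notes, HISAT2 2.1.0, limma and the build GRCh38 were in use. The read counter and its strand setting are not given in the sources used here. Symbols came from the reference tables, and positions (GRCh38) were taken from the deposited counts. The 42 members, their roles, the companion lists and the rule for naming genes were chosen with earlier results of these data known, so no list is independent evidence. Values per library are given for both feedback genes, all pore formers and anti-apoptotic genes, the 8 largest called changes each way between the lines and the called or smallest-p genes of each plasmid comparison.

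All libraries entered 1 edgeR 4.0.16 model (R 4.3.3) with 4 group means, filterByExpr (minimum count 10, total 15), TMM factors and robust quasi-likelihood F tests, which left 23684 genes. SE is the size of the log2 fold change over the square root of F. Alternatives were size factors from DESeq2, DESeq2 1.42.0, limma-voom (limma 3.58.1), no filter, no TMM (between the lines only), each library left out, replicate 1 left out, each line or plasmid alone, and the replicate block. DESeq2 and limma-voom with the block were added after seeing the data. The script was tested on simulated data for 100 genes at each fold. The labels number replicates 1 to 3 in every group. In SW480, libraries with the same number deviated together with correlations of 0.72, 0.44 and 0.31. For COLO320DM these were 0.40, 0.13 and 0.12. Each is over 0.1, so the numbers were taken to pair libraries within a line, although replicates 2 and 3 correlated as much across numbers (0.47 and 0.37 in SW480, 0.16 and 0.15 in COLO320DM). Between lines they correlated at 0.02–0.15 and were not taken as pairs. Without a stated strand setting, reads of overlapping genes cannot be told apart. Precision follows from 33790733 to 45451279 counts per library, and counting intervals cover counting error only. Some genes of the companion and marker lists are counted but not reported here by name.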

Additional observations from a re-analysis of the deposited data

How the results depend on the processing

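Without the block, 0 members were called for the plasmid in either line or for the difference between lines under the edgeR, DESeq2 and limma-voom settings run that left out at most 1 library; scaling without TMM was run between the lines only. With the block 180 genes were called in SW480, against 3 without it, 18 against 2 in COLO320DM and 10 against 2 for the difference between lines, with 1, 0 and 0 members. Added after seeing the data, DESeq2 with the block called 98 genes in SW480, 13 in COLO320DM and 13 for the difference. TNFRSF10B in SW480 was the 1 member among them. Limma-voom with the block, also added then, called 77, 4 and 3 genes in the same order, with 0 members. Without pairs 1, 2 and 3 the blocked counts were 9, 18 and 7 genes in COLO320DM and 538, 13 and 49 in SW480, where 2, 0 and 0 members were called. For the difference between lines they were 6, 32 and 6 genes without the COLO320DM pairs and 139, 6 and 27 without the SW480 pairs, where leaving out SW480 pair 1 called 1 member. Without replicate 1 of every group, 8, 720 and 75 genes were called in COLO320DM, SW480 and the difference, with 0, 3 and 1 members. Leaving out 1 library at a time gave 2 genes in COLO320DM, 3–5 in SW480 and 2 for the difference. In the line comparison 29–34 members were called with empty vector and 30–33 with HKDC1 when 1 library was left out. Over all genes these fits called 16073–17212 and 15869–16630, of 24196–24301 tested. Without replicate 1, 40 and 38 members were called, against 18842 and 18639 of 23759 tested genes. Leaving out 1 library at a time, the log2 fold change of CFLAR with empty vector ran from -0.13 to 0.14, with 0.07 without COLO320DM pCMV6-Entry replicate 1 and the highest value without SW480 pCMV6-Entry replicate 1. It was 0.25 without replicate 1 of every group (edgeR adjusted p = 0.0054). That of BID ran from -0.012 without SW480 pCMV6-Entry replicate 3 to 0.26. Over 14 alternative settings with empty vector, 4 called members lost the line call in some: CASP9 in 6, XPC in 4, BAK1 in 3 and CCNG1 in 1. Another 8 members, not called in the main fit, were called with the same sign in some settings, APAF1 in 7 of 14. The block with the number shared across lines called 35 members under each plasmid, against 76.3% of tested genes with empty vector and 75.7% with HKDC1. Scaling by library totals without TMM called 19 members higher in place of 20. In all it called 32 and 33 members, against 16951 and 16719 of 23684 tested genes. The cause of these shifts was not tested. Apart from PHLDA3, the plasmid changes of the members were smaller than a log2 change of 1. On simulated counts the unpaired test recovered 51% of such changes in SW480 and 48% in COLO320DM, in genes drawn from all tested ones. Recovery among the members was not simulated.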
